A study of Homo sapiens with 24 samples.

Results

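The cytosolic ribosomal protein genes are the 75 genes listed under an RPL or RPS symbol of the ribosome of the cytosol, with RPLP0, RPLP1, RPLP2 and RPSA, whose mean over all libraries was at least 10 TPM, a length-scaled share of the transcripts of a library. A total of 77 symbols matched, among 25342 genes in the table. Of the members, 44 encode proteins of the large subunit and 31 proteins of the small subunit, and all 75 passed the filter on low values. RPL36A lay just outside the limit with a mean of 9.79 TPM, RPL21 was far below it at 0.141 TPM, and RPS10 and RPL17 were among the lowest members, with 43.1 and 50.9 TPM.

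Expression was measured by RNA sequencing of total RNA in 4 multiple myeloma cell lines, in which the transcription factor IRF4 was knocked down. The siIRF4 libraries came from cells electroporated with a pool of siRNAs to IRF4 and taken at 48 hours, and the CTRL libraries from cells labelled DMSO at 0 hours. MM1R and MM1S are sister lines, resistant and sensitive to glucocorticoids, from the same patient. KMS-12-BM and KMS-12-PE are sister lines from the bone marrow and a pleural effusion of another patient. Each line had 3 siIRF4 and 3 CTRL libraries, 24 in all, and every cell was grown in RPMI medium with serum. No control siRNA is named in the labels, so the effects of IRF4 loss, siRNA, electroporation, DMSO and time in culture cannot be told apart. The labels do not say whether replicates were separate cultures, so each p measures only the spread between these libraries.

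Ribosomal proteins coat the ribosomal RNAs, and each ribosome holds about the same number of most of them, so cells make them in matched amounts. Plasma cells and the myeloma cells derived from them secrete antibody and rely on heavy protein synthesis. Most ribosomal protein mRNAs are short and abundant and begin with a C and a run of pyrimidines, the 5′ terminal oligopyrimidine (TOP) tract, through which LARP1 and the mTOR pathway adjust their translation and stability. Their transcript level in total RNA is therefore set by transcription and by decay, and it says nothing of how many of them are on ribosomes.

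The first bases of 8 members are shown because the text below turns on them and because the TOP tract is what these mRNAs are best known to share. Each window holds 10 bases before and 20 bases from the RefSeq transcript start (build GRCh38.p14), and capitals mark a C followed by at least 4 pyrimidines that begins within 5 bases of that start. The windows were chr19:49487598-49487627 on the plus strand for RPL13A, chr22:39319604-39319633 on the minus strand for RPL3 and chr1:153990752-153990781 on the plus strand for RPS27. They were chr12:120201092-120201121 on the minus strand for RPLP0, chr17:74203668-74203697 on the plus strand for RPL38 and chr19:5690285-5690314 on the plus strand for RPL36. The last pair was chr12:56041908-56041937 for RPS26 and chr19:8321486-8321515 for RPS28, both on the plus strand.
RPL13A: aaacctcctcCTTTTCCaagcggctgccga
RPL3: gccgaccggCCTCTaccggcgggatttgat
RPS27: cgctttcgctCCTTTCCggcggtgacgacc
RPLP0: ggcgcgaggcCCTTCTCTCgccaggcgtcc
RPL38: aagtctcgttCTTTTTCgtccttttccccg
RPL36: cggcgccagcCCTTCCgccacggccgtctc
RPS26: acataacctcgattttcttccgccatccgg
RPS28: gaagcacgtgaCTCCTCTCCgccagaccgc
RPL13A, RPS27, RPLP0, RPL38 and RPL36 began with the tract at the first base, RPS28 had it from base 2 and RPL3 from the base before the start, and RPS26 had no match in these letters. Of the 60 members matched in the RefSeq promoter table, 40 (66.7%) had such a tract exactly at the annotated start, against 4.04% of all 27305 promoters. With 5 bases allowed on either side, 48 members (80.0%) had one, against 21.1% of all promoters.

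A library held 17.3 to 27.4 M recovered reads, and a single member had between 151 and 138993 reads in a library. IRF4 was lower in each line, with 259.9 to 313.6 TPM in siIRF4 and 365.3 to 399.3 TPM in CTRL of MM1R, the smallest of the changes on the log2 scale at -0.39 ± 0.067 (adjusted p = 5.8e-05). Here and below, a log2 change is given ± its standard error and an adjusted p is from limma, while a mean level is given ± SD (n = 3). MM1S and KMS-12-PE had the larger IRF4 changes, -1.01 and -1.07, and KMS-12-BM had -0.70. The sum over 9 plasma cell markers was between 1569 and 22381 TPM per library, while the sum over 5 B cell markers was at most 13.2 TPM. Single plasma cell markers were low in KMS-12-BM. In CTRL there, SDC1 and SLAMF7 averaged 6.05 and 1.76 TPM, against 182 and 159 TPM in KMS-12-PE and more in the MM1 lines. The largest part of the plasma cell sum in CTRL of KMS-12-BM was MZB1, with 975 TPM. The plasma cell sum was higher in siIRF4 in both MM1 lines, with 21135 to 22381 TPM in siIRF4 and 18158 to 19345 TPM in CTRL of MM1R, and 13963 to 14494 TPM in siIRF4 and 12163 to 12951 TPM in CTRL of MM1S. Most of it was IGJ, with means of 14926 TPM in siIRF4 and 11407 TPM in CTRL of MM1R. IGJ had 9144 and 6716 TPM in MM1S in the same order and was called in neither line. Of the 9 markers, 6 were called lower and 1 higher in MM1R, against 21.2% and 25.0% of all genes tested. In MM1S, 6 were called lower and 0 higher, against 21.1% and 29.1%. The 9 markers include IRF4, the target of the siRNAs, which is among the 6 lower in both lines. The plasma cell sum was lower in siIRF4 in both KMS-12 lines, with 1569 to 1655 TPM in siIRF4 and 2064 to 2133 TPM in CTRL of KMS-12-BM, and 3899 to 3975 TPM in siIRF4 and 4786 to 5143 TPM in CTRL of KMS-12-PE. The B cell sum moved the same way at a low level, with 2.34 to 3.64 TPM in siIRF4 and 0.373 to 0.696 TPM in CTRL of MM1R, and 1.85 to 2.35 TPM in siIRF4 and 0.604 to 0.839 TPM in CTRL of MM1S. Most of it in the MM1 lines was BCL6. BCL6 averaged 2.52 TPM in siIRF4 and 0.392 TPM in CTRL of MM1R, and 2.01 and 0.678 TPM in MM1S. The B cell sum was 10.8 to 11.4 TPM in siIRF4 and 11.99 to 13.2 TPM in CTRL of KMS-12-BM, and 0.147 to 0.248 TPM in siIRF4 and 0.444 to 0.556 TPM in CTRL of KMS-12-PE. Most of it in KMS-12-BM was PAX5, with means of 9.43 TPM in siIRF4 and 11.3 TPM in CTRL. Sums of other cell type markers also separated the groups without overlap in MM1R, MM1S and KMS-12-PE, and the part of any of these sums in the results below was not tested. In KMS-12-PE, the 5 stromal markers summed to 19.1 to 26.7 TPM in siIRF4 and 56.2 to 85.6 TPM in CTRL, all 5 being called lower. The 5 myeloid markers there summed to 36.3 to 51.5 TPM in siIRF4 and 147.1 to 183.2 TPM in CTRL, carried by S100A8 and S100A9, with LYZ at 0 in all siIRF4 libraries. The 5 epithelial markers in KMS-12-PE summed to 147.0 to 165.9 TPM in siIRF4 and 176.3 to 194.2 TPM in CTRL, and the 5 T and NK cell markers to 27.1 to 31.1 TPM and 9.74 to 11.4 TPM in the same order. EPCAM, the largest part of the epithelial sum, averaged 138.6 TPM in siIRF4 and 129.1 TPM in CTRL and was not called. KRT5 averaged 17.4 and 55.8 TPM and was called lower. Most of the T and NK cell sum was CD3E, with 26.5 and 9.51 TPM. In MM1R, the myeloid sum was 92.2 to 98.7 TPM in siIRF4 and 22.2 to 27.2 TPM in CTRL, nearly all of it S100A9, and the epithelial sum 3.92 to 4.76 TPM in siIRF4 and 4.98 to 6.76 TPM in CTRL, most of it EPCAM. In MM1S, the T and NK cell sum was 9.09 to 13.9 TPM in siIRF4 and 5.75 to 7.21 TPM in CTRL, most of it CD3E, and the sum of 5 erythroid markers 5.62 to 7.18 TPM in siIRF4 and 8.58 to 12.98 TPM in CTRL, most of it HBB. Stromal markers were also present in MM1S, with overlapping sums of 61.8 to 81.8 TPM in siIRF4 and 55.5 to 122.2 TPM in CTRL. In CTRL these sums were at most 0.569 TPM in MM1R and 0.767 TPM in KMS-12-BM. KRT5 and S100A8 averaged 50.9 and 52.7 TPM in CTRL of MM1S, and 0.0173 and 0 TPM in CTRL of MM1R. S100A8 averaged 62.3 TPM in CTRL of KMS-12-PE and 0 TPM in CTRL of KMS-12-BM. The part of these transcripts in differences between sister lines was not tested.

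Together the members made up 14.2% to 23.6% of all TPM in a library, and their share was higher with siIRF4 in 3 of the 4 lines. In MM1R the share was 17.2%, 16.8% and 16.7% in siIRF4 libraries, against 14.3%, 15.2% and 14.2% in CTRL libraries. In MM1S it was 18.7%, 20.0% and 20.2% with siIRF4, against 17.6%, 17.8% and 17.5% in CTRL. The groups of both MM1 lines did not overlap, and the ratio of the group means was 1.16 in MM1R and 1.11 in MM1S. KMS-12-BM had the highest share of the lines and nearly the same one in both groups, with 22.7%, 23.5% and 23.3% in siIRF4 libraries and 22.7%, 23.0% and 23.6% in CTRL libraries. KMS-12-PE had 20.1%, 20.6% and 20.2% with siIRF4, against 18.5%, 18.2% and 19.4% in CTRL, again without overlap and with a ratio of 1.09. The large subunit genes held 1.32 to 1.53 times the TPM of the small subunit genes in every library, the highest ratios being in KMS-12-PE. Since TPM are shares of a library, the values show ribosomal protein mRNA relative to the other mRNA of the cells and not its amount per cell, and fewer cells of a type and less RNA per cell cannot be told apart.

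**Figure D1:**
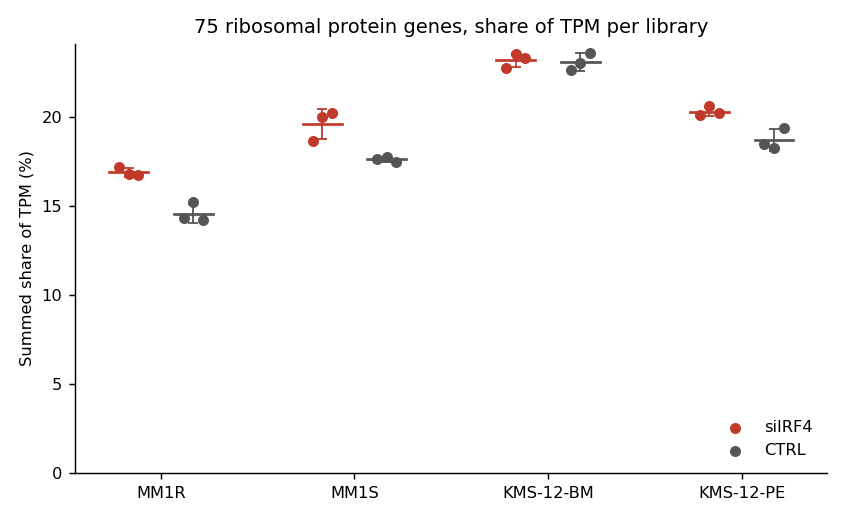
Share of all TPM held by the 75 ribosomal protein genes (y axis, percent) in each library of the 4 lines (x axis), siIRF4 in red and CTRL in grey. Points are libraries, horizontal lines are means and bars are SD (n = 3); the siIRF4 points lie above the CTRL points in MM1R, MM1S and KMS-12-PE and among them in KMS-12-BM.

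By single genes the shift was small, broad and unequal between lines. In MM1R, 67 of the 75 members rose and none fell, whereas 25.0% of all 15113 genes tested rose and 21.2% fell (limma, Benjamini-Hochberg adjusted p under 0.05). At an unadjusted p under 0.05, 67 members rose and 0 fell there, and voom on recovered reads called 66 higher and 0 lower. The median log2 change of the members in MM1R was 0.23, a gain of 17.6%, against 0.02 for all other tested genes, and all 3 siIRF4 libraries lay above all 3 CTRL libraries for 68 members and for 29.4% of all genes tested. In MM1S, 51 members rose and RPS28 fell, with a median of 0.17 (a gain of 12.6%), where 29.1% of all genes rose and 21.1% fell. In KMS-12-PE, 42 members rose and RPS28 fell, with a median of 0.12 (8.43%), where 15.9% of all genes rose and 22.2% fell. In KMS-12-BM, RPL13A and RPL3 rose and RPS28 fell, with a median of 0.01, where 11.4% of all genes rose and 6.09% fell. Under median-of-ratios scaling, 1382 genes rose and 1472 fell in KMS-12-BM, against 1730 and 920 in the fit on deposited TPM. The siIRF4 libraries all lay above the CTRL libraries for 54 members in MM1S, where 32.4% of all genes did so, for 8 in KMS-12-BM (22.0%) and for 47 in KMS-12-PE (19.7%). They all lay below for 1 member in MM1S (22.6% of all genes), 4 in KMS-12-BM (12.3%), 1 in KMS-12-PE (27.7%) and 0 in MM1R (24.4%). Averaged over the 4 lines, 65 members rose and RPS28 fell, against 33.1% and 26.5% of all genes, with a median of 0.13 (9.57%). The large subunit genes (38 of 44 higher, median 0.14) and the small subunit genes (27 of 31 higher, median 0.12) had close medians.

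The calls of single lines were compared member by member. RPL13A and RPL3 rose in all 4 lines, 31 members in 3 lines, 25 in 2 lines, 11 in 1 line, and 6 in none, among them RPL17, RPL36, RPS10, RPS26 and RPS28. All 51 members that rose in MM1S were among the 67 that rose in MM1R, and 40 of the 42 that rose in KMS-12-PE were among those 67 too. Across the 75 members, which share their libraries and so are not independent points, the log2 changes of MM1R and MM1S had a Pearson r of 0.91 (0.85 without RPL13A) and those of KMS-12-BM and KMS-12-PE an r of 0.66. Between an MM1 and a KMS-12 line, r was between 0.37 and 0.53 and Spearman's rho between 0.26 and 0.33.

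**Figure D2:**
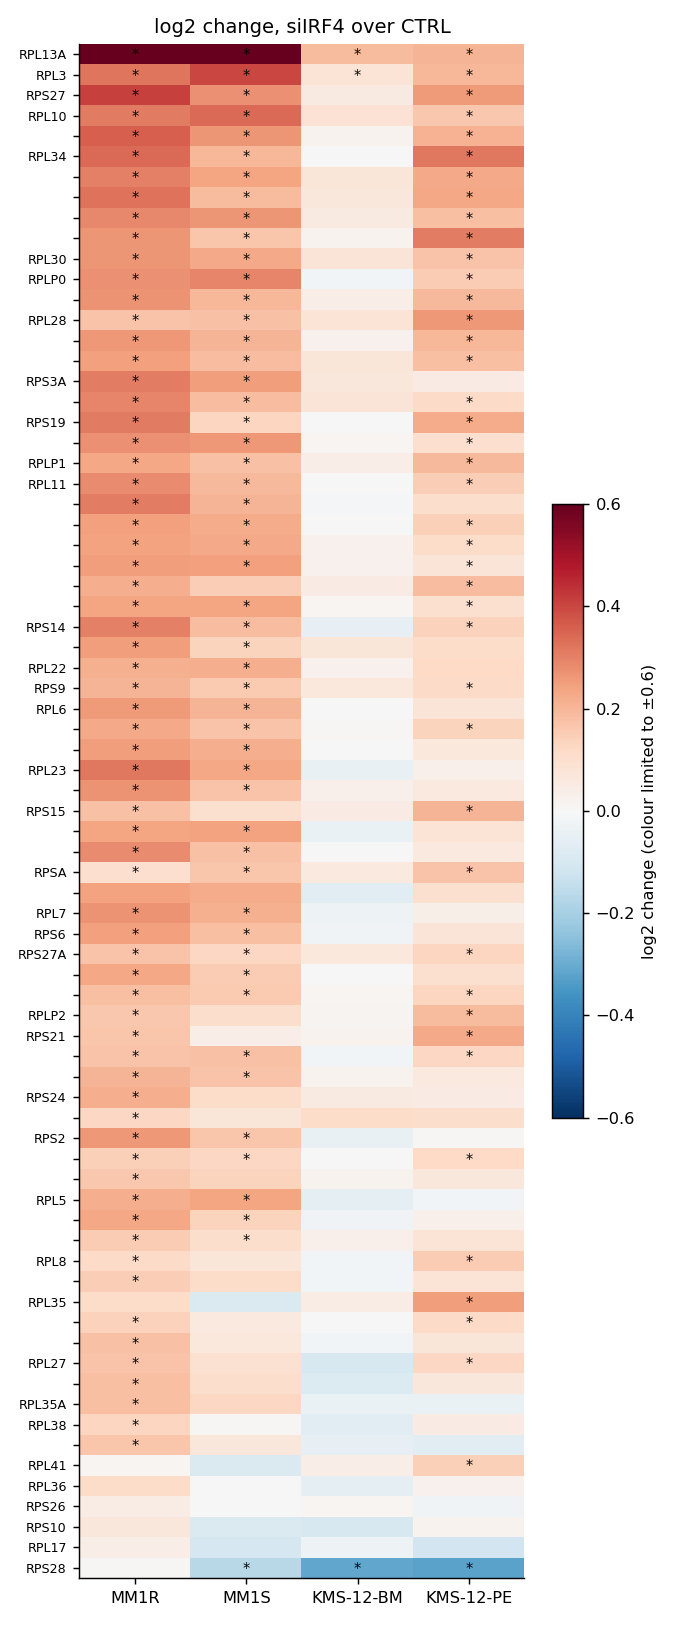
Log2 change (siIRF4 over CTRL, colour) of each of the 75 members (rows, ordered by the average over lines, with names on those described in the text) in the 4 lines (columns). Stars mark an adjusted p under 0.05 in limma and colours are limited to changes of 0.6 either way. Red fills the MM1R and MM1S columns and much of KMS-12-PE, while KMS-12-BM is near white apart from RPS28 and RPL13A, with stars on these and on RPL3.

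RPL13A, a large subunit protein also known for a role off the ribosome in the interferon-induced silencing of inflammatory mRNAs, rose most, and far more than the rest in the MM1 lines. In MM1R it had 258, 227 and 219.7 TPM in siIRF4 libraries, against 129.7, 138 and 127 TPM in CTRL libraries. In MM1S it had 350.3, 408 and 381 TPM in siIRF4 libraries, against 200.2, 187 and 188 TPM in CTRL libraries. In both lines the groups stood far apart, with log2 changes of 0.83 ± 0.058 (adjusted p = 4.1e-10) and 0.98 ± 0.058 (adjusted p = 2.5e-11). In KMS-12-BM it had 317, 283 and 281 TPM in siIRF4 libraries, against 251, 257 and 264 TPM in CTRL libraries, and in KMS-12-PE 143, 143 and 138 TPM in siIRF4 libraries, against 119.6, 122 and 125 TPM in CTRL libraries. The groups did not overlap there either, but the log2 changes were 0.19 ± 0.058 and 0.20 ± 0.058, with adjusted p = 0.028 and 0.0089. The call in KMS-12-BM was lost under median-of-ratios scaling (adjusted p = 0.128 by limma), with a replicate block (adjusted p = 0.0703), and without siIRF4 replicate 1, CTRL replicate 1 or CTRL replicate 2 of that line, with adjusted p between 0.0125 and 0.177 over all alternatives. RPL13A was low for a ribosomal protein gene, with a mean of 219.1 TPM and rank 72 of 75, and its transcript has 10 annotated pseudogenes. How reads that match such copies were counted is not given in the sources used here, so its level, and to an unknown extent its change, are uncertain.

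RPL3, which lies near the peptidyl transferase centre of the large subunit, rose in every line with little spread. It had 2799, 2697 and 2696 TPM in siIRF4 libraries, against 2175, 2143 and 2238 TPM in CTRL libraries in MM1R, and 3454, 3569 and 3526 TPM in siIRF4 libraries, against 2652, 2704 and 2644 TPM in CTRL libraries in MM1S. It had 4269, 4134 and 4083 TPM in siIRF4 libraries, against 3951, 3937 and 3916 TPM in CTRL libraries in KMS-12-BM, and 2731, 2716 and 2656 TPM in siIRF4 libraries, against 2292, 2367 and 2402 TPM in CTRL libraries in KMS-12-PE. The groups did not overlap in any line, and the log2 changes were 0.32, 0.40, 0.08 and 0.20 in the order MM1R, MM1S, KMS-12-BM and KMS-12-PE, with an average of 0.25 ± 0.013 (adjusted p = 8.2e-13). The call in KMS-12-BM (adjusted p = 0.03) was lost under 5 other settings and without any of 5 of the 6 libraries of that line, with adjusted p between 0.0237 and 0.501 over all alternatives.

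RPS27, a small subunit protein with a zinc finger and one of the most abundant mRNAs here, had 4597, 4587 and 4453 TPM in siIRF4 libraries, against 3391, 3692 and 3211 TPM in CTRL libraries in MM1R, and 5762, 5819.6 and 6156 TPM in siIRF4 libraries, against 4843, 5068 and 4747 TPM in CTRL libraries in MM1S. In KMS-12-PE, where it was highest, it had 8113, 8727 and 8228 TPM in siIRF4 libraries, against 6889, 6628 and 7512 TPM in CTRL libraries. The groups of these 3 lines did not overlap, with log2 changes of 0.41 ± 0.049, 0.28 ± 0.049 and 0.25 ± 0.049, all with adjusted p of at most 0.00032. In KMS-12-BM it had 4994, 5128 and 5115 TPM in siIRF4 libraries, against 4765, 4717 and 5188 TPM in CTRL libraries. One CTRL library there lay above all siIRF4 libraries, and the log2 change was 0.06 ± 0.049 (adjusted p = 0.5).

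RPL10 was also among the 5 members with the largest average rise. Its protein joins the large subunit late in its maturation in the cytoplasm. RPL10 had 1480.1, 1489 and 1493 TPM with siIRF4 and 1172, 1262 and 1166 TPM in CTRL in MM1R, and 1389, 1438 and 1439 TPM with siIRF4 and 1124, 1132 and 1110.1 TPM in CTRL in MM1S. Its values were 1794, 1808 and 1800.2 TPM with siIRF4 and 1657, 1689 and 1747 TPM in CTRL in KMS-12-BM, and 1356, 1409 and 1364 TPM with siIRF4 and 1169, 1239.6 and 1289 TPM in CTRL in KMS-12-PE. For RPL10, every siIRF4 library lay above every CTRL library in all 4 lines. It rose by 0.22 ± 0.017 (adjusted p = 2.5e-10) on average and changed by 0.09 ± 0.033 (adjusted p = 0.084) in KMS-12-BM.

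RPS28 was the one member that fell. The protein sits on the small subunit near the place where mRNA leaves the ribosome. In KMS-12-BM it had 2222, 2435 and 2478 TPM in siIRF4 libraries, against 2794, 2939.8 and 3117 TPM in CTRL libraries, and in KMS-12-PE 2469.9, 2699 and 2612 TPM in siIRF4 libraries, against 3259, 3220.4 and 3247 TPM in CTRL libraries. Every siIRF4 library of the KMS-12 lines lay below every CTRL library, with log2 changes of -0.31 ± 0.049 (adjusted p = 9.7e-05) and -0.32 ± 0.049 (adjusted p = 2.0e-05). In MM1S it had 4199, 3977 and 4416 TPM in siIRF4 libraries, against 4577, 4815 and 4709 TPM in CTRL libraries, without overlap and with a log2 change of -0.16 ± 0.049 (adjusted p = 0.0073), and without siIRF4 replicate 2 of MM1S the adjusted p was 0.0533 (range over alternatives 0.00333 to 0.0533). In MM1R it had 4135, 4131 and 4170.1 TPM in siIRF4 libraries, against 3999.9, 4429.5 and 3979 TPM in CTRL libraries, with overlap and a log2 change of 0.00 ± 0.049 (adjusted p = 0.96). RPS28 has 3 annotated pseudogenes, and its start is among the sequences given above.

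**Figure D3:**
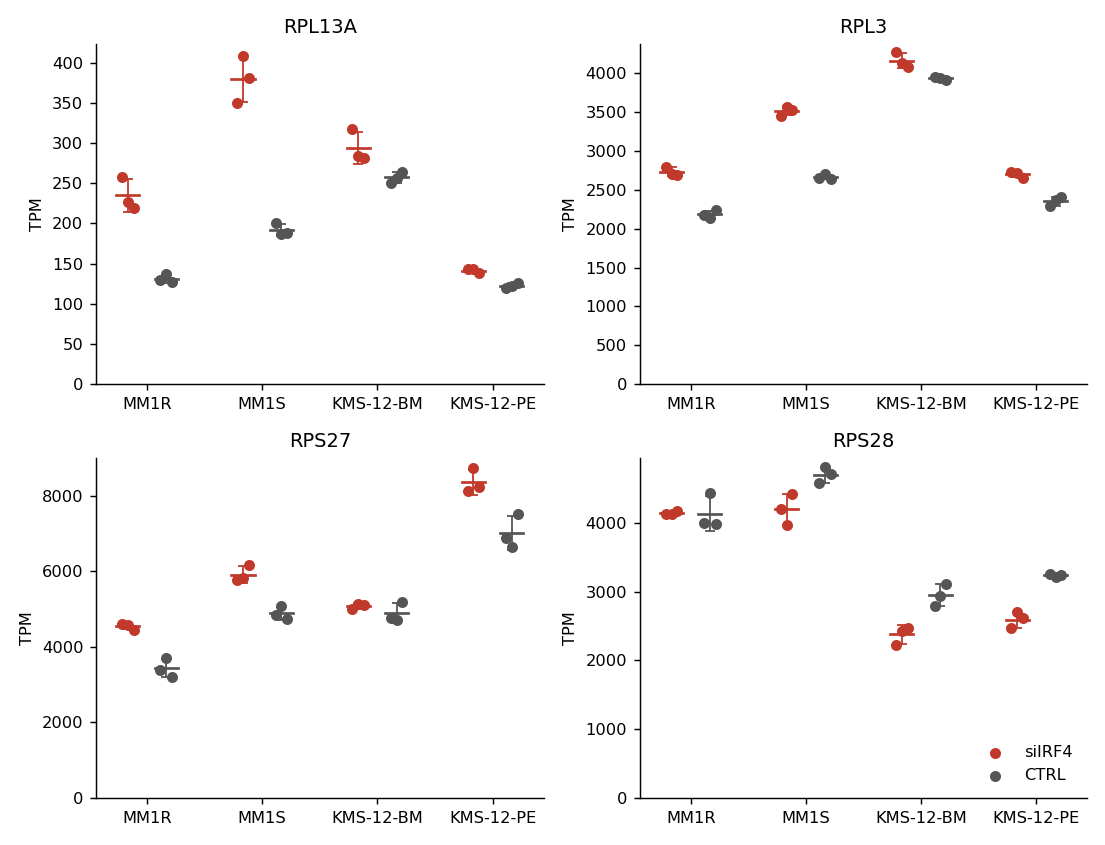
TPM (y axes, starting at 0) of RPL13A, RPL3, RPS27 and RPS28 in each library of the 4 lines, siIRF4 in red left of CTRL in grey. Points are libraries, horizontal lines are means and bars are SD (n = 3); RPL13A of MM1S averages 379.9 TPM in siIRF4 and 192 TPM in CTRL, and RPS28 of both KMS-12 lines lies lower in siIRF4.

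The other 4 of the 5 members with the lowest average change did not pass the test in any line. RPS26, which contacts mRNA just upstream of the start codon, changed by 0.01 ± 0.018 (adjusted p = 0.7) on average. It had 944, 925 and 922 TPM in siIRF4 libraries, against 884, 949 and 878 TPM in CTRL libraries in MM1R, where groups overlapped, and 1011, 989 and 1031 TPM in siIRF4 libraries, against 989, 1020.1 and 1028 TPM in CTRL libraries in MM1S, where they overlapped too. RPS26 had 1275, 1386 and 1337 TPM with siIRF4 and 1296, 1317 and 1347 TPM in CTRL in KMS-12-BM, and 1233, 1297 and 1242 TPM with siIRF4 and 1235, 1264 and 1326 TPM in CTRL in KMS-12-PE. For RPS26, the groups overlapped in both KMS-12 lines. RPL36 changed by 0.02 ± 0.027 on average and had 2064, 2081 and 2068 TPM in siIRF4 libraries, against 1815, 2156 and 1803 TPM in CTRL libraries in MM1R. A single CTRL library of MM1R, replicate 2, lay above its 3 siIRF4 libraries for RPL36, and that library also had the highest summed share of its group. RPL36 had 2372, 2448 and 2535 TPM with siIRF4 and 2407, 2523 and 2437 TPM in CTRL in MM1S, and 1409, 1537 and 1575 TPM with siIRF4 and 1512, 1550.1 and 1642 TPM in CTRL in KMS-12-BM. Its values were 1952, 2035 and 2087 TPM with siIRF4 and 1975, 1918 and 2067 TPM in CTRL in KMS-12-PE. For RPL36, the groups overlapped in MM1S and both KMS-12 lines. RPL17, which lines the exit tunnel, and RPS10, which the ligase ZNF598 marks on collided ribosomes, changed by -0.05 ± 0.026 (adjusted p = 0.1) and -0.02 ± 0.046 (adjusted p = 0.68). RPL17 had 59.5, 57.7 and 58.2 TPM with siIRF4 and 58.1, 55.5 and 56.8 TPM in CTRL in MM1R, and 37.8, 36.9 and 39.1 TPM with siIRF4 and 43.5, 40.9 and 37.8 TPM in CTRL in MM1S. Its values were 71.7, 76.3 and 75.03 TPM with siIRF4 and 74.9, 76.1 and 77.02 TPM in CTRL in KMS-12-BM, and 32.9, 29.6 and 27.8 TPM with siIRF4 and 33.1, 31.01 and 33.6 TPM in CTRL in KMS-12-PE. For RPL17, the groups overlapped in all 4 lines. RPS10 had 36.04, 41.1 and 42.2 TPM with siIRF4 and 32.3, 42.7 and 39.2 TPM in CTRL in MM1R, and 25.999, 30.7 and 31.3 TPM with siIRF4 and 30.2, 30.5 and 32.7 TPM in CTRL in MM1S. Its values were 48.2, 56.7 and 56.4 TPM with siIRF4 and 51.996, 62.6 and 57.8 TPM in CTRL in KMS-12-BM, and 45.3, 47.9 and 50.4 TPM with siIRF4 and 46.5, 48.4 and 46.5 TPM in CTRL in KMS-12-PE. For RPS10, the groups overlapped in all 4 lines. RPL17 and RPS10 each overlap a readthrough gene that the table lists apart (RPL17-C18orf32 at 0.081 TPM and RPS10-NUDT3 at 0.0071 TPM), and the just excluded RPL36A overlaps RPL36A-HNRNPH2 (0.0095 TPM). Their levels, 50.9 and 43.1 TPM, stood far below the median of 2420.3 TPM over the members, so they are reported as uncertain.

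The P stalk, made of RPLP0, RPLP1 and RPLP2, recruits and activates the elongation factors, and its 3 genes rose together on average by 0.18, 0.16 and 0.12. RPLP0 had 3321, 3306 and 3286 TPM in siIRF4 libraries, against 2645, 2775 and 2787 TPM in CTRL libraries in MM1R, and 3851, 4071 and 4052 TPM in siIRF4 libraries, against 3233, 3322 and 3221 TPM in CTRL libraries in MM1S. It had 4852, 4688 and 4719 TPM in siIRF4 libraries, against 4277, 4216 and 4325 TPM in CTRL libraries in KMS-12-PE, and 3905, 3928 and 3868 TPM in siIRF4 libraries, against 3909, 3951 and 3958 TPM in CTRL libraries in KMS-12-BM. All groups but those of KMS-12-BM stood apart, and the log2 changes were 0.27 ± 0.025, 0.29 ± 0.025 and 0.15 ± 0.025, against -0.01 ± 0.025 (adjusted p = 0.77) in KMS-12-BM. RPLP1 was the most abundant member. RPLP1 had 7799, 7735 and 7758 TPM with siIRF4 and 6318, 7275 and 6255 TPM in CTRL in MM1R, and 8988, 9873 and 9701 TPM with siIRF4 and 8328, 8429 and 8469.8 TPM in CTRL in MM1S. Its values were 6146, 6201 and 6234 TPM with siIRF4 and 5639, 6022 and 6411 TPM in CTRL in KMS-12-BM, and 9395, 9348 and 9343 TPM with siIRF4 and 8099, 7912 and 8535 TPM in CTRL in KMS-12-PE. For RPLP1, every siIRF4 library lay above every CTRL library in MM1R, MM1S and KMS-12-PE, and the groups overlapped in KMS-12-BM. Its log2 changes were 0.23 ± 0.048 in MM1R, 0.18 ± 0.048 in MM1S and 0.20 ± 0.048 in KMS-12-PE, and 0.04 ± 0.048 (adjusted p = 0.62) in KMS-12-BM. The MM1S call was lost under median-of-ratios scaling, with adjusted p between 0.000473 and 0.0745 over the alternatives. RPLP2 had 3066, 3003 and 3006 TPM with siIRF4 and 2595, 2950.2 and 2578 TPM in CTRL in MM1R, and 3458, 3432 and 3674 TPM with siIRF4 and 3092, 3366 and 3368 TPM in CTRL in MM1S. Its values were 5201, 5252 and 5569 TPM with siIRF4 and 4889, 5265 and 5709.7 TPM in CTRL in KMS-12-BM, and 5538, 5632 and 5564 TPM with siIRF4 and 4768, 4955 and 4951 TPM in CTRL in KMS-12-PE. For RPLP2, every siIRF4 library lay above every CTRL library in MM1R, MM1S and KMS-12-PE, and the groups overlapped in KMS-12-BM. RPLP2 changed by 0.16 ± 0.051 (adjusted p = 0.013) in MM1R, 0.10 ± 0.051 (adjusted p = 0.097) in MM1S and 0.19 ± 0.051 (adjusted p = 0.0057) in KMS-12-PE, and the MM1R call was lost under median-of-ratios scaling and without CTRL replicate 1 or 3 (adjusted p 0.000905 to 0.0736 over alternatives).

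RPL5 and RPL11 form the 5S ribonucleoprotein with the 5S rRNA, and when ribosome assembly fails they bind the ubiquitin ligase MDM2. RPL5 had 1101, 1014 and 1006 TPM in siIRF4 libraries, against 888, 899.8 and 892 TPM in CTRL libraries in MM1R, and 1374, 1526 and 1478 TPM in siIRF4 libraries, against 1262, 1229 and 1221 TPM in CTRL libraries in MM1S. It had 2502, 2533 and 2559 TPM in siIRF4 libraries, against 2606, 2615 and 2684 TPM in CTRL libraries in KMS-12-BM, and 1788, 1784 and 1771 TPM in siIRF4 libraries, against 1768, 1758 and 1877 TPM in CTRL libraries in KMS-12-PE. The siIRF4 libraries lay above those of CTRL in both MM1 lines, below them in KMS-12-BM and among them in KMS-12-PE, and the test of the difference between the line pairs gave 0.26 ± 0.036 (adjusted p = 3.9e-06). RPL11 had 3274, 3092 and 3114 TPM with siIRF4 and 2601, 2624 and 2567 TPM in CTRL in MM1R, and 3758, 4055 and 4054 TPM with siIRF4 and 3404, 3478 and 3474 TPM in CTRL in MM1S. Its values were 4402, 4514 and 4534 TPM with siIRF4 and 4398, 4447 and 4585 TPM in CTRL in KMS-12-BM, and 4399, 4546 and 4417 TPM with siIRF4 and 3930.4, 3853 and 4301 TPM in CTRL in KMS-12-PE. For RPL11, every siIRF4 library lay above every CTRL library in MM1R, MM1S and KMS-12-PE, and the groups overlapped in KMS-12-BM. RPL11 rose in 3 lines, by 0.28 ± 0.036 in MM1R, 0.20 ± 0.036 in MM1S and 0.15 ± 0.036 in KMS-12-PE, and changed by 0.00 ± 0.036 (adjusted p = 0.99) in KMS-12-BM.

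RPS19, the gene most often mutated in the inherited anaemia named after Diamond and Blackfan, had 2811, 2641 and 2657 TPM in siIRF4 libraries, against 2123, 2302 and 2106 TPM in CTRL libraries in MM1R, and 1703, 1672 and 1701 TPM in siIRF4 libraries, against 1472, 1417 and 1458 TPM in CTRL libraries in KMS-12-PE. Neither pair of groups overlapped, and the log2 changes were 0.31 ± 0.040 (adjusted p = 1.3e-06) and 0.22 ± 0.040 (adjusted p = 1.2e-04). RPS19 had 2544, 2821 and 2835 TPM with siIRF4 and 2499, 2474 and 2526 TPM in CTRL in MM1S, and 2163, 2322 and 2254 TPM with siIRF4 and 2208, 2232 and 2288 TPM in CTRL in KMS-12-BM. For RPS19, every siIRF4 library lay above every CTRL library in MM1S, and the groups overlapped in KMS-12-BM.

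RPS14, lost in the 5q deletion of myelodysplastic syndrome, changed by 0.30 ± 0.046 in MM1R, 0.18 ± 0.046 in MM1S and 0.14 ± 0.046 in KMS-12-PE, the last losing its call with a replicate block (adjusted p = 0.0569) and without siIRF4 replicate 2, CTRL replicate 1 or CTRL replicate 2 of that line, with adjusted p between 0.00332 and 0.0862 over all alternatives. RPS14 had 2262, 2169.9 and 2179 TPM with siIRF4 and 1818, 1785 and 1760.1 TPM in CTRL in MM1R, and 2182, 2497 and 2537 TPM with siIRF4 and 2216, 2082 and 2043 TPM in CTRL in MM1S. Its values were 1765, 1914 and 1809.9 TPM with siIRF4 and 1892, 1917 and 1872 TPM in CTRL in KMS-12-BM, and 1516, 1565 and 1480.0 TPM with siIRF4 and 1365, 1342 and 1435 TPM in CTRL in KMS-12-PE. For RPS14, every siIRF4 library lay above every CTRL library in MM1R and KMS-12-PE, and the groups overlapped in MM1S and KMS-12-BM. RPL22, which lymphocyte development depends on in mice, rose by 0.21 ± 0.049 in MM1R and 0.22 ± 0.049 in MM1S. RPL22 had 562, 551 and 527 TPM with siIRF4 and 474, 481 and 460.3 TPM in CTRL in MM1R, and 672, 755 and 728 TPM with siIRF4 and 645, 616 and 594 TPM in CTRL in MM1S. Its values were 1019, 1001 and 1029 TPM with siIRF4 and 981, 995 and 1024 TPM in CTRL in KMS-12-BM, and 896, 945 and 888 TPM with siIRF4 and 800.0, 800.3 and 919 TPM in CTRL in KMS-12-PE. For RPL22, every siIRF4 library lay above every CTRL library in MM1R and MM1S, and the groups overlapped in both KMS-12 lines.

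RPSA, first described as a laminin receptor, rose (the MM1R call being lost under median-of-ratios scaling, adjusted p = 0.0618) by 0.10 ± 0.026, 0.17 ± 0.026 and 0.17 ± 0.026 in MM1R, MM1S and KMS-12-PE. RPSA had 2179, 2167 and 2098 TPM with siIRF4 and 1974, 2008 and 2024 TPM in CTRL in MM1R, and 3011, 3106 and 3088 TPM with siIRF4 and 2729, 2809 and 2663 TPM in CTRL in MM1S. Its values were 2757, 2815 and 2820.4 TPM with siIRF4 and 2688, 2712 and 2653 TPM in CTRL in KMS-12-BM, and 3134, 3026 and 3049.6 TPM with siIRF4 and 2695, 2676 and 2818 TPM in CTRL in KMS-12-PE. For RPSA, every siIRF4 library lay above every CTRL library in all 4 lines. RPS27A, which is made as a fusion with ubiquitin, rose by 0.17 ± 0.045, 0.12 ± 0.045 and 0.13 ± 0.045 in these lines, but 4 single libraries of MM1S and 5 of KMS-12-PE could each end the call there when left out, with adjusted p up to 0.249 and 0.12 over the alternatives. RPS27A had 857, 842 and 842 TPM with siIRF4 and 767, 781 and 712 TPM in CTRL in MM1R, and 1109, 1238 and 1212 TPM with siIRF4 and 1131, 1071 and 1063 TPM in CTRL in MM1S. Its values were 1013, 1019 and 1067 TPM with siIRF4 and 945, 984 and 1041 TPM in CTRL in KMS-12-BM, and 1546, 1538 and 1552 TPM with siIRF4 and 1385, 1366 and 1494 TPM in CTRL in KMS-12-PE. For RPS27A, every siIRF4 library lay above every CTRL library in MM1R and KMS-12-PE, and the groups overlapped in MM1S and KMS-12-BM. RPL8, the second most abundant member, rose by 0.12 ± 0.034 in MM1R and 0.15 ± 0.034 in KMS-12-PE and changed by 0.07 ± 0.034 (adjusted p = 0.083) in MM1S and -0.02 ± 0.034 (adjusted p = 0.81) in KMS-12-BM. The call of RPL8 in MM1R was lost under median-of-ratios scaling and without CTRL replicate 1, with adjusted p between 0.00181 and 0.0887 over the alternatives. RPL8 had 5638, 5638 and 5651 TPM with siIRF4 and 4998, 5397 and 5225 TPM in CTRL in MM1R, and 4641, 4639 and 4908 TPM with siIRF4 and 4311, 4609 and 4575 TPM in CTRL in MM1S. Its values were 12469.9, 13428 and 12874 TPM with siIRF4 and 12946, 13179 and 13078 TPM in CTRL in KMS-12-BM, and 6731, 7026 and 6667 TPM with siIRF4 and 5951, 6232 and 6196 TPM in CTRL in KMS-12-PE. For RPL8, every siIRF4 library lay above every CTRL library in MM1R, MM1S and KMS-12-PE, and the groups overlapped in KMS-12-BM. Among the 19 members known as genes of Diamond-Blackfan anaemia, 14 rose and 1, RPS28, fell on average, with a median of 0.12, against 65 and 1 of all 75 members and 33.1% and 26.5% of all genes.

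The response differed between the MM1 and the KMS-12 lines. In the test of MM1 minus KMS-12 response, 44 members were higher and 2 lower, where 25.0% of all genes were higher and 20.0% lower, and the median difference was 0.12 for the members and 0.03 for all other tested genes. RPL13A differed most, by 0.71 ± 0.058 (adjusted p = 3.0e-09). RPL23, which like RPL5 and RPL11 can bind MDM2, differed by 0.28 ± 0.053 (adjusted p = 1.8e-04). It had 3075, 2933 and 2876 TPM with siIRF4, against 2358, 2494 and 2275 TPM in CTRL in MM1R, and 3472, 3497 and 3567 TPM with siIRF4, against 3512, 3594 and 3769 TPM in CTRL in KMS-12-BM, the groups standing apart in MM1R and overlapping in KMS-12-BM. RPL23 had 3425, 3904 and 3776 TPM with siIRF4 and 3253, 3198 and 3007 TPM in CTRL in MM1S, and 3339, 3617 and 3494 TPM with siIRF4 and 3289, 3224 and 3725 TPM in CTRL in KMS-12-PE. For RPL23, every siIRF4 library lay above every CTRL library in MM1S, and the groups overlapped in KMS-12-PE. RPL7, a large subunit protein that contacts the 5S rRNA, differed by 0.24 ± 0.036, and RPS28 by 0.24 ± 0.049, its log2 change being nearer to 0 in the MM1 lines. RPL7 had 3390.0, 3278 and 3254 TPM with siIRF4 and 2763, 2696 and 2772 TPM in CTRL in MM1R, and 3278, 3473 and 3501 TPM with siIRF4 and 2949.6, 3006 and 2886 TPM in CTRL in MM1S. Its values were 4699, 4626 and 4653 TPM with siIRF4 and 4748, 4706 and 4803 TPM in CTRL in KMS-12-BM, and 3566, 3748 and 3494 TPM with siIRF4 and 3356, 3421 and 3766 TPM in CTRL in KMS-12-PE. For RPL7, every siIRF4 library lay above every CTRL library in MM1R and MM1S, and every siIRF4 library lay below every CTRL library in KMS-12-BM, and the groups overlapped in KMS-12-PE. The 2 members with the opposite sign were RPL35 at -0.14 ± 0.054 (adjusted p = 0.047) and RPL41, which encodes a very short peptide, at -0.13 ± 0.046 (adjusted p = 0.026), both chosen for mention after their values were seen. Neither was called lower under median-of-ratios scaling, with scaling over genes other than the members or with a replicate block. RPL35 had 4406, 4681 and 4673 TPM with siIRF4, against 4030.1, 3678 and 3864 TPM in CTRL in KMS-12-PE, without overlap.

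Between MM1R and MM1S, limma called no member different (0 higher and 0 lower, against 1.14% and 1.33% of all genes). At an unadjusted p under 0.05, 4 members were higher and 1 lower in MM1R, and voom on the recovered reads called 0 and 0. Between KMS-12-BM and KMS-12-PE, 17 members rose less or fell more in KMS-12-BM and 0 the other way, where 7.11% of all genes were lower and 15.9% higher. The median difference was -0.10 for the members and 0.06 for all other tested genes. Over all genes, 2402 were higher and 1074 lower, against 1739 and 1582 under median-of-ratios scaling and 1818 and 1432 by voom. At an unadjusted p under 0.05, 33 members were lower and 0 higher, and voom called 29 lower and 0 higher. RPL34, a large subunit protein, differed most, by -0.32 ± 0.073 (adjusted p = 0.0032). It had 964, 959.7 and 984 TPM with siIRF4, against 929.8, 973 and 1014 TPM in CTRL in KMS-12-BM, with overlap, and 1829.8, 1783 and 1815 TPM with siIRF4, against 1420.4, 1388 and 1555 TPM in CTRL in KMS-12-PE, without. RPS19 differed by -0.22 ± 0.056, RPL27 by -0.22 ± 0.053 and RPS21 by -0.21 ± 0.064, with adjusted p between 0.0056 and 0.021. These differences share their libraries with the changes within each line and with each other.

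Levels of the members spanned a wide range on the TPM scale, which is per length. The median of the mean level was 2420.3 TPM, 60 members were at 1000 TPM or more, and the highest were RPLP1 with 7759, RPL8 with 7375 and RPS27 with 5514 TPM. RPS10 and RPL17 were among the 3 lowest. Gene lengths recovered from the table had a median of 837 bases over the members and 2860 bases over all tested genes. Several members below 600 TPM carry long lengths, such as RPL28 with 5183 bases, RPL27A with 4879, RPL13 with 4726 and RPL15 with 4716.

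The members differed between lines in their CTRL libraries. The median ratio of the highest to the lowest CTRL mean of a member was 1.77, and 25 members differed by more than 2-fold. KMS-12-BM had the highest CTRL mean for 44 members and MM1R the lowest for 45. In CTRL libraries of the MM1 lines against the KMS-12 lines, 53 members were lower and 17 higher, where 44.8% of all genes were lower and 40.4% higher, with a median log2 difference of -0.33.

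RPS2, which lines the mRNA entry tunnel of the small subunit, differed most. In CTRL libraries it had 1152, 1279 and 1220.2 TPM in MM1R and 2177, 2265 and 2194 TPM in MM1S, against 9309.9, 9441 and 9437 TPM in KMS-12-BM and 5355, 5442 and 5321 TPM in KMS-12-PE. No libraries of different lines overlapped, the MM1 against KMS-12 difference was -2.11 ± 0.024 on the log2 scale, and the highest line exceeded the lowest 7.72-fold. RPL30 and RPL6, both of the large subunit, were lower in the MM1 lines, with log2 differences of -1.95 ± 0.025 and -1.46 ± 0.023. RPL30 had 922, 976 and 936 TPM in MM1R and 1164, 1143 and 1110.3 TPM in MM1S, against 5343, 5319 and 5589 TPM in KMS-12-BM and 2989, 2842 and 3084 TPM in KMS-12-PE, the first set all below the second. RPL6 had 927, 893 and 945 TPM in MM1R and 1204, 1173 and 1126 TPM in MM1S, against 3107, 3130.0 and 3080.2 TPM in KMS-12-BM and 2589, 2571 and 2748 TPM in KMS-12-PE, the first set all below the second. RPL35A, a Diamond-Blackfan gene, RPL28 and RPS28 were higher in the average of the MM1 lines than in that of the KMS-12 lines, by 0.79 ± 0.038, 0.52 ± 0.031 and 0.51 ± 0.034. The CTRL mean of RPL28 was highest in KMS-12-BM and lowest in KMS-12-PE, so RPL28 was not higher in the MM1 lines than in KMS-12-BM. RPL28 had 354, 373 and 369 TPM in MM1R and 371, 397 and 417 TPM in MM1S, against 403, 404 and 422 TPM in KMS-12-BM and 173, 179 and 160.4 TPM in KMS-12-PE, the first set overlapping the second. RPL35A had 5705, 5234 and 5409 TPM in MM1S and 3310.3, 3501 and 3209.6 TPM in MM1R, against 3413, 3461 and 3479 TPM in KMS-12-BM and 1769.9, 1662 and 1853 TPM in KMS-12-PE, and the MM1R and KMS-12-BM libraries overlapped. All 6 of these differences had an adjusted p of at most 4.0e-12.

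In CTRL libraries of MM1R against MM1S, 60 members were lower and 7 higher, where 27.6% of all genes were lower and 29.7% higher, with a median of -0.32. RPS2, RPS24 and RPS3A, all of the small subunit, were lowest in MM1R relative to MM1S, with log2 differences of -0.86 ± 0.035, -0.84 ± 0.061 and -0.84 ± 0.046. RPS3A had 908, 943 and 886 TPM in MM1R and 1717, 1645 and 1554 TPM in MM1S, without overlap. RPS24 had 530.2, 551 and 498 TPM in MM1R, against 1019, 930.1 and 891 TPM in MM1S, the first set all below the second. RPS15 had 5423, 6150.3 and 5434 TPM in MM1R, against 4059, 4203 and 4326 TPM in MM1S, the first set all above the second. RPL17, RPS15 and RPS10 were higher in MM1R, by 0.47 ± 0.053, 0.43 ± 0.043 and 0.27 ± 0.092, and RPS10 lost its call under 3 alternatives and without each of 3 single libraries, with adjusted p between 0.00113 and 0.106 over all of them.

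In CTRL libraries of KMS-12-BM against KMS-12-PE, 49 members were higher and 19 lower, where 37.3% of all genes were higher and 40.0% lower, with a median of 0.27. RPS6, the substrate of the S6 kinases, had 6383, 6400.3 and 6524 TPM in KMS-12-BM and 2374, 2256 and 2474 TPM in KMS-12-PE. The libraries stood far apart, with a log2 difference of 1.44 ± 0.036 (adjusted p = 1.2e-19). RPS9 was higher in KMS-12-BM by 1.31 ± 0.043. RPS9 had 4471, 4465 and 4411 TPM in KMS-12-BM, against 1746, 1777 and 1859 TPM in KMS-12-PE, the first set all above the second. RPL38, which mouse embryos need for the translation of Hox mRNAs, and RPL34 were lower in KMS-12-BM, with log2 differences of -0.82 ± 0.050 and -0.58 ± 0.052. RPL38 had 1556, 1596 and 1671 TPM in KMS-12-BM, against 2761, 2748 and 3036 TPM in KMS-12-PE, the first set all below the second.

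These differences between lines were set beside those of the genes around each member. For each member the 20 nearest tested genes that are not members, 10 on each side in the order of RefSeq GRCh38.p14, gave a median difference, with 13 and 17 such genes for the 2 members near a chromosome end. Over the 75 members, some of which share neighbours and all of which share libraries, Spearman's rho between the member and its neighbours was 0.64 for MM1 against KMS-12 lines, with the same sign for 60 members. It was 0.65 for KMS-12-BM against KMS-12-PE, with the same sign for 55 members. For MM1R against MM1S it was 0.43, with the same sign for only 37 of the 75. For the average change with siIRF4, rho was 0.16, with the same sign for 52 members. No such values were computed for genes other than the members. On chromosome 19, which holds 12 members, the median CTRL difference of KMS-12-BM over KMS-12-PE was 0.91 for the members and 0.35 for the other tested genes. For MM1 over KMS-12 lines the medians there had opposite signs, 0.19 and -0.18. Whole chromosomes did not always match for KMS-12-BM over KMS-12-PE either. The medians were 0.22 and -0.12 on chromosome 3 (7 members) and 0.15 and -0.20 on chromosome 1 (5 members), but -0.31 and -0.35 on chromosome 2 (4 members). RPL35A and RPS2 departed from their surroundings, with 0.97 in KMS-12-BM over KMS-12-PE for RPL35A and -0.69 for its 13 neighbours, and with -2.11 in MM1 over KMS-12 lines for RPS2 and -0.51 for its neighbours. Both were picked after their values were seen.

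**Figure D4:**
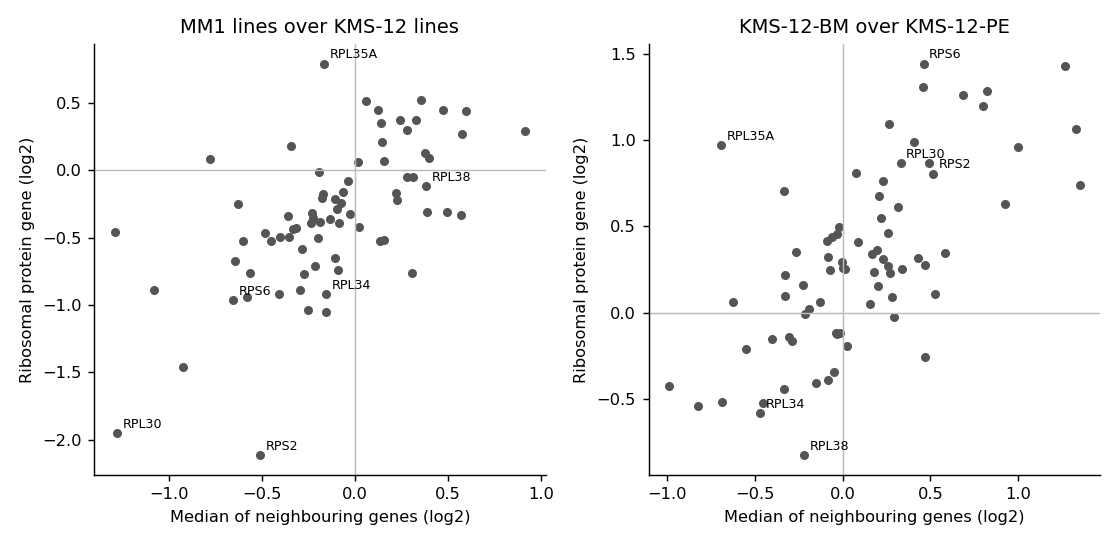
CTRL log2 difference of each of the 75 members (y axes) against the median difference of up to 20 nearest tested genes that are not members (x axes), for MM1 over KMS-12 lines (left) and KMS-12-BM over KMS-12-PE (right). Points rise from lower left to upper right in both panels (Spearman's rho 0.64 and 0.65), with RPS2 and RPL35A away from the cloud.

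Features that the members share or differ in were set beside the response. The average log2 change had a median of 0.13 in the 40 members with a TOP tract exactly at the annotated start. It was 0.14 in the 20 members without one at that base. The 20 include RPL3 and RPS28, whose tract begins within 5 bases of the start, as it did in 48 of the 60 members. These medians therefore do not compare members with and without a TOP tract. The median average change was 0.15 in the 27 members whose genes host a small nucleolar RNA in the GENCODE annotation and 0.12 in the other 48. Over the 75 members, Spearman's rho with the average change was 0.10 for the number of pseudogenes, which reached 91 for RPL23A and 74 for RPSA, -0.10 for the mean level and 0.36 for gene length. As a description of other short and abundant genes, the 167 that averaged at least 200 TPM and were under 1000 bases long had median changes of -0.05 (MM1R), -0.11 (MM1S), -0.01 (KMS-12-BM) and 0.03 (KMS-12-PE).

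Ribosomal proteins outside the symbol rule and paralogs were measured too. FAU, which encodes a fusion of a ubiquitin-like protein with RPS30, changed by 0.05 ± 0.022 (adjusted p = 0.075) on average and rose in MM1R by 0.14 ± 0.043 (adjusted p = 0.0091), a call lost under 2 settings and without CTRL replicate 3 (adjusted p 0.00026 to 0.0748 over alternatives). Of 7 tested paralogs, 4 fell and 1 rose on average, against 26.5% and 33.1% of all genes. RPL39L, a paralog of RPL39 with high expression in testis, had 57.99 ± 4.11 TPM with siIRF4 and 86.8 ± 1.94 TPM in CTRL in MM1R and 81.3 ± 9.49 TPM with siIRF4 and 132 ± 7.95 TPM in CTRL in MM1S, log2 changes of -0.58 ± 0.070 (adjusted p = 7.2e-07) and -0.69 ± 0.070 (adjusted p = 4.1e-08). In the KMS-12 lines RPL39L changed by -0.03 ± 0.070 and -0.03 ± 0.070, neither called. RPL26L1, RPL22L1 and RPL36AL fell, with average log2 changes of -0.22, -0.15 and -0.06, RPL36AL losing its call under 2 alternatives with adjusted p up to 0.18. RPS27L, a paralog of RPS27, rose by 0.19 ± 0.032 (adjusted p = 2.0e-05) on average, with 212 ± 8.97 TPM with siIRF4 and 169 ± 7.53 TPM in CTRL in MM1R. RPL7L1 changed by -0.06 ± 0.025 (adjusted p = 0.051).

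Ribosomal protein pseudogenes were low, the 4 most abundant being RPL32P3 with 15.5, RPL23AP64 with 11.1, RPL13P5 with 8.78 and RPL23AP7 with 8.47 TPM on average. Their average changes were 0.10 ± 0.047, 0.13 ± 0.118, 0.01 ± 0.107 and -0.02 ± 0.044, none of them called. Of the 16 pseudogenes tested, 5 rose and 1 fell on average, with a median of 0.15, against 33.1% and 26.5% of all genes. Reads of a pseudogene and its parent gene can be exchanged in counting, so these values are uncertain.

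Other TOP mRNAs encode mostly translation factors. Of 18 listed, 12 rose and 2 fell on average, against 33.1% and 26.5% of all genes, with medians of 0.20 (MM1R), 0.22 (MM1S), 0.03 (KMS-12-BM) and 0.04 (KMS-12-PE). In the MM1 minus KMS-12 test 13 were higher and 2 lower, against 25.0% and 20.0% of all genes. EEF1A1, the elongation factor that brings aminoacyl-tRNA to the ribosome, rose by 0.33 ± 0.035 in MM1R and 0.35 ± 0.035 in MM1S and changed by 0.09 ± 0.035 (adjusted p = 0.089) in KMS-12-BM. EEF2, the translocase, rose by 0.23 ± 0.046 and 0.51 ± 0.046 in the MM1 lines and changed by 0.03 ± 0.046 (adjusted p = 0.63) in KMS-12-PE. VIM, which encodes vimentin, fell in 3 lines, with log2 changes of -1.41 ± 0.190 in MM1R, -1.08 ± 0.190 in MM1S and -1.65 ± 0.190 in KMS-12-PE, and changed by 0.40 ± 0.190 (adjusted p = 0.17) in KMS-12-BM. Of the 18, VIM, EEF1B2 and EEF1G had no TOP tract exactly at the annotated start. EEF1D, PABPC1, EIF3E, EIF3H, EIF3L and HNRNPA1 were not among the RefSeq promoters scanned. The 9 snoRNA host genes listed as having TOP starts, which were not checked here, were mixed. On average 5 were higher and 3 lower (33.1% and 26.5% of all genes), with ZFAS1 at 0.27 ± 0.031 and SNHG1 at -0.27 ± 0.019.

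Ribosomal proteins need chaperones and importins before they join a subunit. Of 20 such genes, 15 fell and 1 rose on average, against 26.5% and 33.1% of all genes, with a median of -0.13. GRWD1, the chaperone of RPL3, changed by -0.35 ± 0.022 (adjusted p = 3.3e-11), and IPO5, an importin that carries ribosomal proteins into the nucleus, by -0.29 ± 0.017 (adjusted p = 6.4e-12). BTF3, part of the nascent polypeptide complex at the ribosome, was the one that rose, at 0.07 ± 0.018 (adjusted p = 0.0033), and lost its call under median-of-ratios scaling (adjusted p 0.000465 to 0.109 over alternatives). Lists of other housekeeping complexes gave a scale for these values. All 14 proteasome core genes fell on average, with a median of -0.16, where 26.5% of all genes fell. Of 30 short and abundant oxidative phosphorylation genes, 8 rose and 6 fell, with a median of 0.02, against 33.1% and 26.5% of all genes. In KMS-12-PE, however, 10 of these 30 rose and 1 fell, with a median of 0.10, against 15.9% and 22.2% of all genes.

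**Figure D5:**
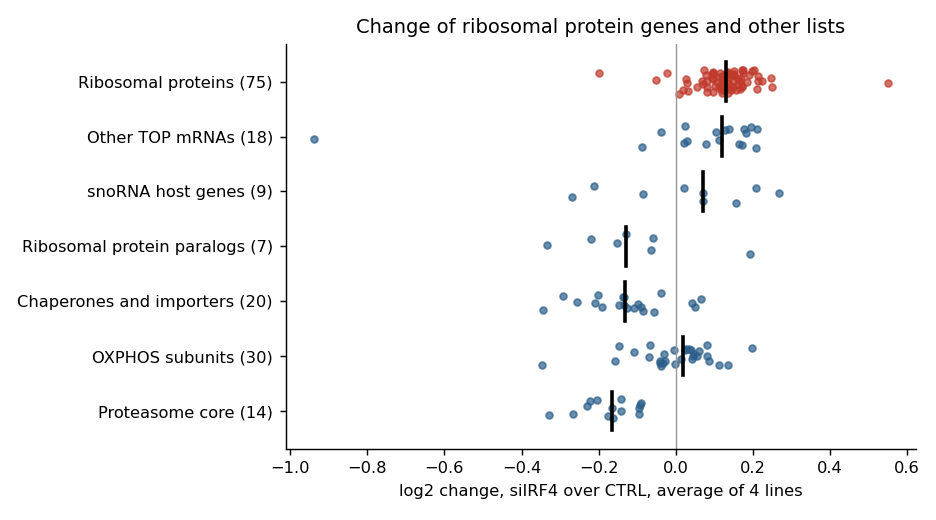
Average log2 change over the 4 lines (x axis, siIRF4 over CTRL) of each gene (points) of the ribosomal proteins and 6 other lists (rows, number of genes tested in brackets). Black bars are medians; those of the ribosomal proteins and the other TOP mRNAs lie near 0.13 and 0.12, and those of the paralogs, the chaperones and importers and the proteasome core below 0.

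MYC, a transcription factor that drives ribosomal protein genes, rose in both MM1 lines and fell in both KMS-12 lines. It had 434 ± 12.1 TPM with siIRF4 and 315 ± 9.27 TPM in CTRL in MM1R and 539 ± 28.3 TPM with siIRF4 and 461 ± 18.3 TPM in CTRL in MM1S, rises of 0.46 ± 0.044 and 0.23 ± 0.044 on the log2 scale. It had 823 ± 11.8 TPM with siIRF4 and 1144 ± 28.4 TPM in CTRL in KMS-12-BM and 954 ± 10.7 TPM with siIRF4 and 1168 ± 82.2 TPM in CTRL in KMS-12-PE, signed changes of -0.47 ± 0.044 and -0.29 ± 0.044, all 4 with adjusted p of at most 0.00019. No relation between MYC and the members across 4 lines was tested. LARP1, the repressor of TOP mRNAs, changed by -0.09 ± 0.026 (adjusted p = 0.0058) on average. By single lines it fell in KMS-12-PE, with -0.21 ± 0.052 (adjusted p = 0.0026), and was not called in the others, with -0.05 ± 0.052 in MM1R, 0.03 ± 0.052 in MM1S and -0.12 ± 0.052 in KMS-12-BM.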

How the data were processed

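Per the submitters' processing notes, the authors used STAR, featureCounts, FastQC and MultiQC with build hg19, without versions; the sources used here do not give the annotation, the strandedness or the handling of reads that match several places. The deposited table holds TPM per gene and library, and 28 rows with symbols turned into dates were left out. Whole reads behind the authors' TPM were recovered as counts from the steps between libraries, within 0.02 reads, for 20484 of 20484 genes with a value in at least 6 libraries, holding at least 99.8% of TPM. The 15113 genes with at least 1 TPM in at least 3 libraries were fitted as log2(TPM + 1) with limma 3.58.1 in R 4.3.3, 1 fit of 8 group means with a trended robust prior, and p-values were adjusted by Benjamini-Hochberg over all of them (threshold 0.05). Fold changes on this scale understate those of low genes. Named genes were the 5 members with the highest and the 5 with the lowest average change, the 5 with the largest difference of responses between MM1 and KMS-12 lines, the 3 leading each CTRL difference in each direction, the 3 highest and 3 lowest by mean TPM, members with set roles and, from the other lists, leading called genes. Some items the rule names are not reported here. Members, lists and rules were chosen with earlier results of these data known. Replicates differed beyond sampling noise (lowest chi-square per degree of freedom 2.05). The fits were tested on simulated data. Alternatives were another pseudocount, filter, scaling, prior, a replicate block, separate fits, voom on recovered reads and leaving out each library.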

Additional observations from a re-analysis of the deposited data

Results flagged for a closer look

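Responses to siIRF4 differed between cell lines by a test of the difference itself (limma, adjusted p under 0.05). In MM1 minus KMS-12 lines, 44 of the 75 members were higher and 2 lower, against 25.0% and 20.0% of all genes. The largest such differences on the log2 scale were 0.71 for RPL13A, 0.28 for RPL23, 0.26 for RPL5, 0.24 for RPS28 and 0.24 for RPL7. In KMS-12-BM minus KMS-12-PE, 17 members were lower, where 7.11% of all genes were lower and 15.9% higher. Among the lowest were RPL34 at -0.32, RPS19 at -0.22, RPL27 at -0.22 and RPS21 at -0.21.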

How the results depend on the processing

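No called value changed sign under the alternatives run. Members called higher in KMS-12-BM, 2 in the main analysis, were 0 under median-of-ratios scaling, 1 with a prior without a trend, 1 in separate fits and 1 by voom. Members called lower were 2 in MM1S and 2 on average under median-of-ratios scaling, against 1 each. Members lower in MM1 minus KMS-12 lines, 2 in the main analysis, were 1 with a pseudocount of 0.1, 1 without a filter, 0 under median-of-ratios scaling, 0 with scaling over other genes, 1 without a trend and 1 by voom. Members lower in KMS-12-BM minus KMS-12-PE, 17, were 10 without a trend and 29 by voom. Members lower in CTRL of KMS-12-BM against KMS-12-PE, 19, were 12 with scaling over other genes. The ratio of summed shares in KMS-12-BM, 1.004 on the deposited TPM, was 0.976 under median-of-ratios scaling, and over all genes 1382 were then called higher and 1472 lower there, against 1730 and 920. Leaving out 1 library gave 62 to 69 members higher in MM1R, 46 to 59 higher and 0 to 2 lower in MM1S, 0 to 2 higher in KMS-12-BM, 32 to 52 higher and 1 to 2 lower in KMS-12-PE and 65 to 67 higher and 1 to 2 lower on average. It gave 41 to 54 higher and 0 to 2 lower in MM1 minus KMS-12 lines, 0 to 2 higher in MM1R minus MM1S and 10 to 23 lower in KMS-12-BM minus KMS-12-PE. Residuals of same-numbered libraries correlated between -0.088 and 0.086. In KMS-12-BM, replicates 2 and 3 had 0.082 and 0.086, where differently numbered libraries had at most 0.038. Such low values cannot tell whether replicate numbers pair libraries. With a replicate block, 0 members were higher in KMS-12-BM and 0 lower in MM1 minus KMS-12 lines. Where no reason is given, the cause was not tested. Separate fits gave no value for results over several lines.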

Other observations

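Other gene groups around the ribosome were measured in the same fit, in which 33.1% of all genes rose and 26.5% fell on average. Of 17 regulators of TOP mRNA translation, 4 rose and 10 fell on average over the lines, with a median log2 change of -0.09. Of 13 genes of ribosome surveillance and of the branch from the 5S ribonucleoprotein to MDM2, 2 rose and 9 fell, with a median of -0.15. MDM2, a ubiquitin ligase, changed by -0.23 ± 0.034 (adjusted p = 8.2e-06), and HBS1L, which helps to split stalled ribosomes, by -0.28 ± 0.024 (adjusted p = 2.1e-09). Of 10 transcription factors of ribosomal protein genes, 2 rose and 5 fell, with a median of -0.04.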
